A study of Mus musculus with 12 samples.

Results

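The regions described here are the H3K9me3 peaks that crypts and villi of the mouse small intestine have in common. They were chosen by measured values, namely the peak calls of both H3K9me3 libraries, as the peaks of the crypts list that share at least 1 bp with a peak of the villi list, which gave 837 of the 2126 crypts peaks (39.4%), out of 169081 peaks of all modifications in the series. The other 1289 crypts peaks had no villi counterpart and are called crypts-only. Crypts are the epithelial pits that hold stem and proliferating cells and were released from the tissue with EDTA, whereas villi are the projections covered by differentiated cells and were scraped off. Chromatin of both was precipitated with antibodies against H3K27me3, H3K4me1, H3K4me3, H3K9me2 and H3K9me3 and sequenced together with an input, 1 library for each of the 12 combinations, with 5% of Drosophila S2 chromatin added before precipitation. No treatment or mutation is given for the mice, and their strain, age and sex are not given in the sources used here. All 8 epithelial marker genes examined, among them Epcam, Vil1 and Cdx2, had H3K4me3 at or within 1 kb of their start in both compartments. The stem cell marker Olfm4 had one in crypts and none in villi, while other crypt genes such as Lgr5 had one in both. Of 6 markers of differentiated cells 5, among them Alpi and Fabp1, had one in both. Pdgfra, a mesenchymal gene, had one in both compartments as well, the only one of 6 mesenchymal and endothelial markers. Of 6 immune markers none had one in crypts and 2 had one in villi, Ptprc and Cd3e. The part of such cells in the villi H3K9me3 peaks was not tested, and no list says from which cells a peak came.

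H3K9me3 is the trimethylated form of lysine 9 on histone H3 and the mark of constitutive heterochromatin. SUV39H enzymes place it on the satellite repeats around centromeres, while SETDB1 places it on retrotransposons, where it is brought by TRIM28 and by zinc finger proteins that carry a KRAB domain. The same machinery is known to mark the 3′ ends of the zinc finger genes themselves and the methylated copy of imprinted control regions, where ZFP57 binds a methylated TGCCGC.

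Several kinds of sequence recurred among the shared peaks, and the following were chosen to show them. All are from the RefSeq sequence of GRCm38, the assembly that mm10 names. The first is a unit of the tandem array on chromosome 9, chr9:3027538-3027771, forward strand, with each CpG in capitals. It was the stretch of the widest shared peak that was most like the unit after it (97.9% identical bases).
unit of the chromosome 9 array: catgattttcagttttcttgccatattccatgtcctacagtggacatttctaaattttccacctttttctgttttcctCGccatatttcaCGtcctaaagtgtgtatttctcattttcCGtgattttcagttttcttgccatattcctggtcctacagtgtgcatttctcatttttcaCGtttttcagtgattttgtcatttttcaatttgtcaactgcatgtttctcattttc

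Arrays of zinc fingers recurred among the shared peaks in genes. The windows below lie on the last coding exon of Zfp27 (chr7:29895690-29895989, reverse strand), Zfp316 (chr5:143255006-143255305, reverse strand) and Zfp386 (chr12:116059735-116060034, forward strand). They are written in the direction of the gene, and capitals mark the codons of the paired cysteines and histidines of 3 fingers in each.
Zfp27: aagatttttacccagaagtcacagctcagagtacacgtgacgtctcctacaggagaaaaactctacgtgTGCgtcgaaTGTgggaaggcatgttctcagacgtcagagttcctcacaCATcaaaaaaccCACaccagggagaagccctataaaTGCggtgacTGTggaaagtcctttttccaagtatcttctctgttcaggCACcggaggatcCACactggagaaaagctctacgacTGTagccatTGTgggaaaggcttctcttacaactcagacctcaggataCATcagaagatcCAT
Zfp316: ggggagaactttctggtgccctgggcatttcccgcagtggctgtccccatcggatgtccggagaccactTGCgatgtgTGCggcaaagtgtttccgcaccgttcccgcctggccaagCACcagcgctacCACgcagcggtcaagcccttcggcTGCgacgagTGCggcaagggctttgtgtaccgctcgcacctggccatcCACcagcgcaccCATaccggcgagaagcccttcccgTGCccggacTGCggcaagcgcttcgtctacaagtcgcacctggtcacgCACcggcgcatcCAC
Zfp386: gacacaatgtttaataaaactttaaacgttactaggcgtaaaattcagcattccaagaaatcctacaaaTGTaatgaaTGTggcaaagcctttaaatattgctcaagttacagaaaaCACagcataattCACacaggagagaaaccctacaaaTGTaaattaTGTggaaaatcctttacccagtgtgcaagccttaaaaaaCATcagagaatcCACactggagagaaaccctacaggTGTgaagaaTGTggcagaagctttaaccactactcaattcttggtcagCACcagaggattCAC

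A further set holds exact matches to the primer binding site of a retrotransposon, the 18 bases complementary to the 3′ end of a tRNA at which reverse transcription begins. The capitals mark these 18 bases, complementary to tRNA-Pro (chr12:20234293-20234352, reverse strand), tRNA-Leu (chr16:21050863-21050922, forward strand) and tRNA-Gln (chr4:11843248-11843307, forward strand).
site for tRNA-Pro: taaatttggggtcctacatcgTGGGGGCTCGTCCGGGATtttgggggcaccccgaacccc
site for tRNA-Leu: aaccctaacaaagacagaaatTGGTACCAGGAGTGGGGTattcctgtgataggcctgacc
site for tRNA-Gln: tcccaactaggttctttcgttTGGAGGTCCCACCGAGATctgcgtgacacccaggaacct

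The last windows come from the imprinted genes Peg3 (chr7:6728229-6728528) and Mest (chr6:30737514-30737813), from the stretch covered in both crypts and villi and on the forward strand of the chromosome. Capitals mark TGCCGC or its complement GCGGCA.
Peg3: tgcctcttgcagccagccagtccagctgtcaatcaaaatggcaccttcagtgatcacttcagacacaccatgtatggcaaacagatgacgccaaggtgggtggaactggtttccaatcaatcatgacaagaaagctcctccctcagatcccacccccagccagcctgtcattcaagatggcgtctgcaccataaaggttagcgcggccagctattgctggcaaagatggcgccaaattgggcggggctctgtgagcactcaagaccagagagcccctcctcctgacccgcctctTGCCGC
Mest: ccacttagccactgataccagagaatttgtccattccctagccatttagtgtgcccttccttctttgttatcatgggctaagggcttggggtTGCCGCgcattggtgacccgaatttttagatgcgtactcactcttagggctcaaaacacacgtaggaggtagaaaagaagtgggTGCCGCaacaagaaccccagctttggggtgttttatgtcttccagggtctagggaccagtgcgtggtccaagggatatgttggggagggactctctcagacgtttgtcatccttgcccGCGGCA

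The peaks carry a score, taken as the −log10 p-value of the peak caller, which depends on the depth of each library and is not scaled by the added fly chromatin. The paper reports a strong drop of H3K9me3 intensity in villi after scaling by the fly chromatin, which these scores do not measure. Score, width and the fact of sharing belong to the rule that chose these peaks, so their values are a description only. In crypts the shared peaks had a median score of 14.955 (10.0 to 6786) and a median width of 1226 bp (378 to 16828 bp). Their villi counterparts had a median score of 13.95 (10.1 to 6789) and a median width of 1034 bp (352 to 16831 bp). The crypts-only peaks were at 11.7 and 725 bp. The villi score was above the crypts score at 383 shared peaks and below it at 454, and across the shared peaks the Spearman correlation of the scores was 0.411 and that of the widths 0.618, with no test since neighbouring peaks are not independent. Most of the shared peaks were weak in both compartments, with 589 scoring under 20 on either side, and only 30 scored over 50 in crypts, 27 of them also in villi. No crypts-only peak and 1 villi-only peak reached that score.

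**Figure D1:**
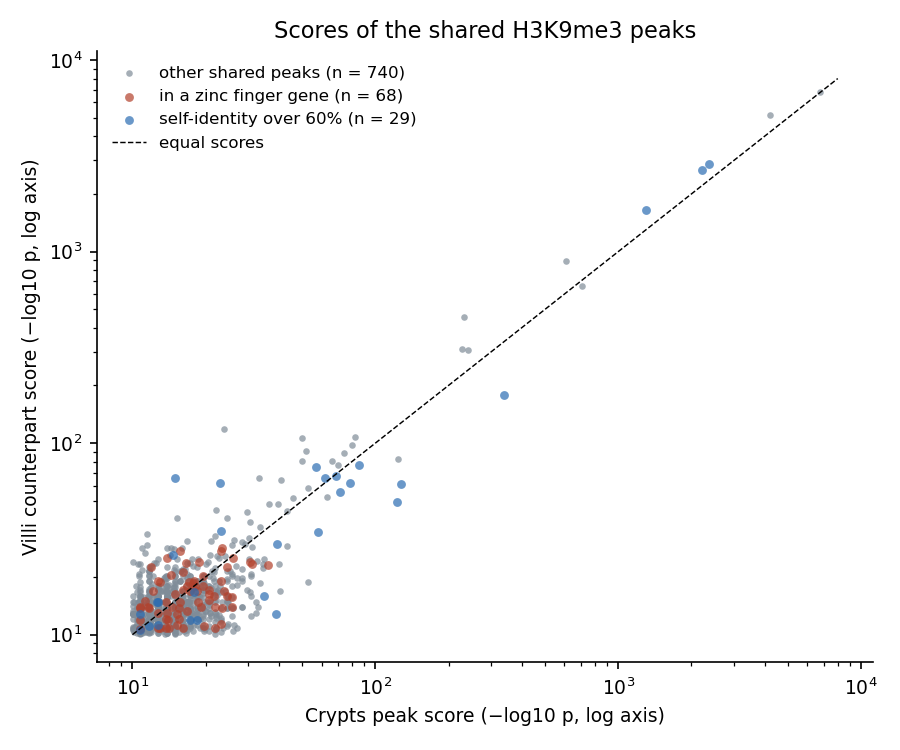
Score of each of the 837 shared peaks in crypts (x axis) and of its strongest villi counterpart (y axis), both as −log10 p on log axes. Zinc finger peaks (red) lie at low scores, up to 36.2 in crypts, while peaks whose sequence repeats itself at over 60% identity (blue) reach the highest range.

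A single villi peak was met by 797 of the shared peaks and 2 or more by 40. The villi peaks covered a median of 78.4% of a shared peak, 148 lay wholly inside a villi peak and 3 were covered over less than 10%. Together the shared peaks spanned 1.378 Mb, of which 0.9995 Mb was common to both compartments. At the edge of the rule, the shared peak chr4:146484367-146485058 had 35 bp in common with a villi peak and the one in Csmd2, chr4:128012522-128012914, had 43 bp. Just outside it, a crypts-only peak in Desi2 (chr1:178224457-178226325) ended 27 bp from a villi peak, and 45 crypts-only peaks lay within 1 kb of one, against a median distance of 264 kb.

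The strongest shared peaks lay on a satellite array and on predicted gene models rich in soft-masked bases. The highest score belonged to chr2:98666284-98667286, annotated as the predicted gene Gm10800, with 6786 in crypts and 6789 in villi. Its neighbour in Gm10801 (chr2:98662247-98662945) had 708 and 659.6. A peak in Gm21738 (chr14:19415722-19419554) followed with 4216 and 5169. In all 3 the limits in villi lay within 50 bp of those in crypts at both ends, and 66.4 to 83.7% of their bases were soft-masked, that is, marked as repeats in the reference.

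At the start of chromosome 9, 3 shared peaks formed an array of 38.29 kb. The peak chr9:3021472-3038299 scored 2360 in crypts and 2878 in villi, chr9:3000014-3014160 scored 2217 and 2673, and chr9:3014686-3020950 scored 1304 and 1651. All 3 had a higher score in villi, by a similar factor. Set against itself, the sequence of each was most alike at an offset of 234 bp, which is the known length of the mouse major satellite unit, and 95.9 to 96.9% of it was soft-masked. Placed along the widest of the 3 in 70 steps of its own length, the unit printed above found a best match of 93.2% identical bases in the median (56.4 to 100.0%). A median 31-mer of these peaks occurred 13 to 15 times on the assembled chromosomes. The authors' alignment put a read pair with several equally good sites at a single one, so a score there belongs to the repeat as assembled and not to 1 copy.

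Other strong shared peaks lay on different kinds of sequence. The peak chr17:39843036-39848783, over AY036118, Gm26917 and Gm42418, scored 611 in crypts and 896 in villi and was 64.9% G and C, with only 4.24% of its bases soft-masked. On chromosome Y, chrY:258228-259458 scored 340 and 178, and chrY:11857755-11858524, whose median 31-mer had 427 copies, scored 128 and 61.3. Both peaks had a lower score in villi. A peak over 2700054A10Rik (chr17:13550706-13553146) contained no CpG at all and scored 241 and 304. Peaks with a self-identity over 60% numbered 34, and the most frequent offsets among them were 20 bp and 31 bp (6 peaks each), 22 bp and 84 bp (5 each) and 234 bp (3). The 31-bp offset was found in 2 peaks of Mid1 and another on chromosome X, in 1 of Tmem267 on chromosome 13 and in 1 each on chromosomes 9 and 12, and the 22-bp offset in peaks close to the start of chromosomes 4, 6 and 18 and in a neighbouring pair on chromosome 7.

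Across all shared peaks, repeats took a lower share of bases than in crypts-only peaks and a higher one than in villi-only peaks. The median soft-masked share was 41.7% (quartiles 23.3 and 59.6%), against 47.5% in crypts-only and 37.2% in villi-only peaks, and 36.4% of all bases of the chromosomes were soft-masked. A shared peak had a median of 21.1% of its 31-mers elsewhere in the genome, against 20.5% for crypts-only peaks. Over 50% of the 31-mers were repeated in 128 shared peaks (15.3%, 95% Wilson interval 13.01 to 17.89%) and 171 crypts-only peaks (13.3%, 11.5 to 15.2%), where all crypts peaks together gave 14.1%. Wilson intervals here and below cover counting error only, and peaks that lie close together are not independent.

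Resemblance between peaks was counted by alignment. With at least 200 aligned bases at 80% identity or more, 579 of them (69.2%, 66.0 to 72.2%) matched another crypts H3K9me3 peak, against 754 crypts-only peaks (58.5%, 55.8 to 61.2%). The width bears on this count, since a wide peak has more bases to align. Of the shared peaks, 532 matched another shared peak and 368 fell into 29 groups of at least 5 around a common sequence. The largest group held 85 shared peaks on 19 chromosomes around chr8:85145058-85147479, aligned over a median of 474 bp at 84.4% identity, and 4 of its peaks held a tRNA-Gln site. Its sequence was not confined to shared peaks, since 68 crypts-only peaks were like its centre. The second, around chr8:72125019-72126176, held 33, of which 4 had a tRNA-Leu site, and 35 crypts-only peaks were like its centre. The third held 26, and 57 crypts-only peaks were like its centre. A group of 8 held most of the strongest peaks, with a median score of 1760 in crypts and 2162 in villi, and no crypts-only peak resembled its centre. In another group of 8 shared peaks, on 2 chromosomes around chr17:22774625-22779559, 6 lay in zinc finger genes.

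Primer binding sites were found in 49 shared peaks (5.85%, 4.46 to 7.66%) and 48 crypts-only peaks (3.72%, 2.82 to 4.90%). Per length the order was the other way round, with 36.3 matches per Mb in shared and 41.5 in crypts-only peaks, both above the 1.53 per Mb of the chromosomes as a whole. By tRNA, the intervals of shared and crypts-only peaks were apart for tRNA-Pro and overlapped for tRNA-Leu and for a site of tRNA-Phe and tRNA-Ser. tRNA-Pro sites were in 20 shared peaks (2.39%, 1.55 to 3.66%) and 7 crypts-only peaks (0.543%, 0.263 to 1.12%). tRNA-Leu sites were in 12 and 15, or 1.43% (0.822 to 2.49%) and 1.16% (0.706 to 1.91%). A site that fits both tRNA-Phe and tRNA-Ser was in 3 shared peaks (0.358%, 0.122 to 1.05%) and 13 crypts-only peaks (1.01%, 0.590 to 1.72%). The tRNA-Pro site shown above is in a peak that scored 66.2 in crypts.

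Of the gene families examined, zinc finger genes held the most shared peaks. They are read here as the 429 protein-coding genes whose symbol begins with Zfp, Zscan or Zkscan, or is Zik1 or Zim1, and they encode DNA-binding proteins, many with a KRAB domain. Of the shared peaks 68 lay in such a gene (8.12%, 6.46 to 10.2%), against 53 crypts-only peaks (4.11%, 3.16 to 5.34%) and 5.69% of all crypts H3K9me3 peaks, while these genes span 0.500% of the chromosomes. Looked at from the genes, 55 of the 429 held a shared peak (12.8%) and 44 of the 429 held a crypts-only peak. Of all 21938 protein-coding genes, 292 held a shared peak (1.33%). With the midpoint of the peak in place of any overlap, which depends less on the width, 67 shared peaks (8.00%) and 51 crypts-only peaks (3.96%) remained. When crypts and villi peaks had to overlap by 50% of the length of each, the shares were 7.18% (5.41 to 9.47%) and 5.07% (4.07 to 6.30%), and the intervals overlapped.

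The score bears on this comparison, because shared peaks are stronger. In the band from 10 to 12, 3.86% (1.97 to 7.44%) of the shared and 3.69% (2.51 to 5.39%) of the crypts-only peaks lay in a zinc finger gene, with widely overlapping intervals. From 12 to 15, it was 16 of 243 shared peaks (6.58%, 4.09 to 10.4%) and 19 of 419 crypts-only peaks (4.53%, 2.92 to 6.97%), again overlapping. From 15 to 20, it was 24 of 203 shared peaks (11.8%, 8.07 to 16.99%) and 6 of 160 crypts-only peaks (3.75%, 1.73 to 7.94%). From 20 to 50, the shares were 12.99% (8.57 to 19.21%) and 9.38% (3.24 to 24.2%), the latter from only 32 peaks. None of the 30 shared peaks over 50 lay in a zinc finger gene, with an upper limit of 11.4%. These bands were set after the data were seen.

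**Figure D2:**
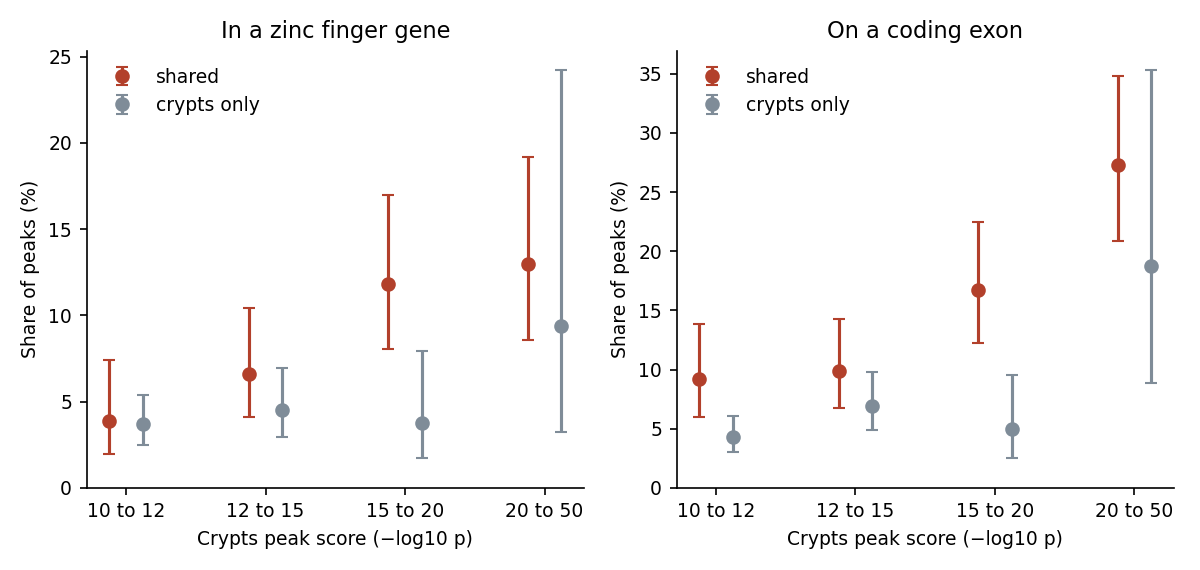
Share of shared (red) and crypts-only (grey) H3K9me3 peaks in a zinc finger gene (left) and on a coding exon of any protein-coding gene (right), in 4 bands of the crypts score. Points are percentages of the peaks in a band and bars are 95% Wilson intervals; the intervals for zinc finger genes overlap in every band but that from 15 to 20 (11.8% and 3.75%).

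Within the zinc finger genes the shared peaks sat towards the end. Their midpoint lay at a median of 83.7% of the gene from its start (quartiles 55.7 and 91.7%), and 49 of the 68 (72.1%, 60.4 to 81.3%) overlapped the last coding exon, which holds the finger array in this family. Of the 53 crypts-only peaks in these genes 19 did so (35.8%, 24.3 to 49.3%). In other protein-coding genes the last coding exon was met by 30 of 244 shared peaks (12.3%, 8.75 to 17.01%) and 17 of 398 crypts-only peaks (4.27%, 2.68 to 6.73%). Some of these other genes encode zinc fingers under another symbol. Without genes that hold the finger pattern, a setting added after seeing the data, it was 17 of 230 shared peaks (7.39%, 4.67 to 11.5%) and 11 of 373 crypts-only peaks (2.95%, 1.65 to 5.20%), with overlapping intervals. Leaving out peaks that score over 50 as well, which include gene models on satellites, left 12 of 218 shared peaks (5.50%, 3.18 to 9.37%). Shared peaks are wider, which bears on the overlap with an exon. By midpoint, 39 of all 837 shared peaks (4.66%) lay in the last coding exon of a zinc finger gene. So did 15 of all 1289 crypts-only peaks (1.16%). The midpoint lay anywhere in such a gene for 67 shared and 51 crypts-only peaks.

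**Figure D3:**
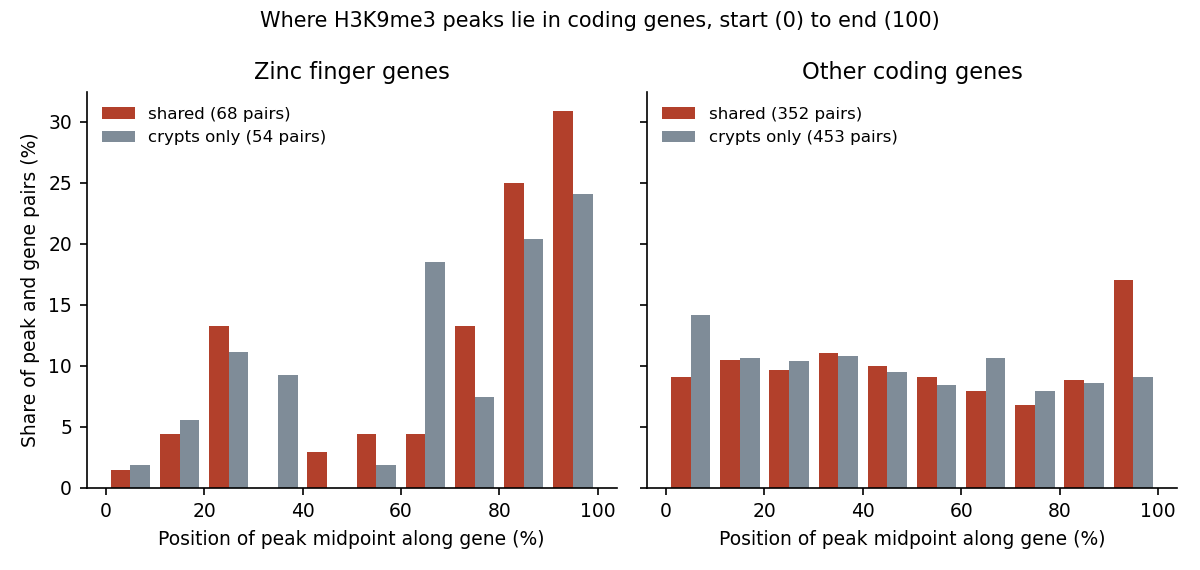
Position of the midpoint of shared (red) and crypts-only (grey) peaks along zinc finger genes (left) and other protein-coding genes (right), from start (0) to end (100), as a percentage of the pairs of peak and gene in bins of 10. In zinc finger genes 30.9% of the 68 shared pairs fall in the last bin, in other genes 17.05% of 352, of which 75 come from the nested gamma protocadherin genes; without these and without genes that hold the finger pattern it is 16.2% of 260.

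The sequence of these peaks shows the array directly. A finger and its linker take 28 codons, or 84 bases, and in 46 of the 49 shared peaks on the last coding exon the offset at which the sequence was most like itself was 84 bp or 2 or 3 times that (93.9%, 83.5 to 97.9%). The same held for 15 of the 19 crypts-only peaks on such exons (78.9%, 56.7 to 91.5%), with overlapping intervals. In the 19 shared peaks elsewhere in zinc finger genes this was so in none. Outside the named genes 32 of 769 shared peaks (4.16%, 2.96 to 5.82%) and 21 of 1236 crypts-only peaks (1.70%, 1.11 to 2.58%) had the same spacing. Some of the 32 lay in genes that encode fingers without a Zfp symbol, such as Gm5141 with 2 shared peaks, Gm17655, Gm35315, AU041133, 2610008E11Rik and A630089N07Rik, and others in no coding gene, as at chr17:17204105-17208575. When the gene list was built instead from the finger pattern in translated coding sequence (591 genes), an alternative chosen after seeing the data, 83 shared peaks (9.92%, 8.07 to 12.1%) and 78 crypts-only peaks (6.05%, 4.88 to 7.49%) fell in a zinc finger gene.

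Of the 55 zinc finger genes with a shared peak, 47 held 1, 5 held 2 and 3 held more. Zfp981 (chr4:146502027-146539395) held 4, scoring 13.8, 14.4, 26.0 and 13.9 in crypts, and 2 of them met the last coding exon. Zfp936 (chr7:43114229-43192109) also held 4, with 16.1, 20.7, 10.7 and 16.1 in crypts and 17.1, 17.1, 10.7 and 21.1 in villi. Zfp873 (chr10:82048123-82064745) held 3, with 18.1, 11.3 and 19.1 in crypts and 18.05, 14.95 and 13.95 in villi. The highest-scoring peak of the family was in Zfp180 (chr7:24103425-24108622), at 36.2 in crypts and 23.0 in villi, followed by Zfp27 (30.9 and 23.2) and Zfp810 (30.5 and 23.9). Zfp445, which encodes a factor known to act at imprinted loci together with ZFP57, held a peak of 25.7 and 15.8 on a coding exon other than the last. Zinc finger genes on chromosomes 7 (10 genes), 17 (8), 4 (7) and 13 (6) were the most numerous. Their shared peaks were wide and less repetitive than the others, with a median width of 2452.5 bp, 23.3% of bases soft-masked against 43.1% in the other shared peaks, and 7.89% of 31-mers repeated against 22.4%. Fingers of paralogous genes are alike, so read pairs of one array can be placed on another where both hold the same sequence.

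Shared peaks also lay on coding exons of other genes. Outside the zinc finger genes known by symbol, 72 shared peaks (8.60%, 6.89 to 10.7%) and 51 crypts-only peaks (3.96%, 3.02 to 5.16%) met a coding exon. Some of these exons encode fingers too, and without genes that hold the finger pattern 58 shared peaks (6.93%, 5.40 to 8.85%) and 44 crypts-only peaks (3.41%, 2.55 to 4.55%) remained. Of the 58, 51 scored 50 or less. Over all protein-coding genes, zinc finger genes included, a coding exon was met by 126 shared peaks (15.1%, 12.8 to 17.6%) and 72 crypts-only peaks (5.59%, 4.46 to 6.98%), where all crypts peaks gave 9.31%. By score band, the shares over all protein-coding genes were 9.18% (5.95 to 13.9%) and 4.28% (2.99 to 6.08%) from 10 to 12, and 9.88% (6.73 to 14.3%) and 6.92% (4.86 to 9.76%) from 12 to 15. They were 16.7% (12.2 to 22.5%) and 5.00% (2.56 to 9.56%) from 15 to 20, and 27.3% (20.9 to 34.8%) and 18.75% (8.89 to 35.3%) from 20 to 50. The intervals were apart only in the band from 15 to 20. Introns held 157 shared peaks (18.8%) against 344 crypts-only peaks (26.7%), and 434 shared peaks (51.9%) lay outside any annotated gene. Plec, which encodes the cytoskeletal linker plectin, had 2 shared peaks on its last coding exon, of 21.4 and 13.9 in crypts and both met by a villi peak of 19.7. The single-exon genes D1Pas1, a germ-cell RNA helicase, and Rbmxl2, a testis splicing factor, each had a shared peak over coding sequence, of 16.8 and 30.9 at D1Pas1 and 10.7 and 10.9 at Rbmxl2 in crypts and villi. Duxf3, one of the DUX homeobox genes active in early embryos, held a peak of 43.1 and 44.4. Trim71, a ubiquitin ligase of stem cells and the germline, had one on its last coding exon, of 20.7 and 12.1. D1Pas1, Rbmxl2, Duxf3 and Trim71 were picked after their values were seen, and Rbmxl2 also held 1 crypts-only peak. None of the 29 germline genes of the fixed list held a shared peak, and 2 held a crypts-only peak.

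Few shared peaks were near promoters. A start site of a protein-coding transcript lay within 1 kb of 42 (5.02%, 3.73 to 6.71%), against 36 crypts-only peaks (2.79%, 2.02 to 3.84%) and 3.67% of all crypts peaks, and for 22 of the 42 the midpoint was that close. The median ratio of observed to expected CpG was 0.225 in shared and 0.191 in crypts-only peaks, and it reached 0.6 in 49 shared peaks (5.85%) and 48 crypts-only peaks (3.72%). Among the CpG-rich ones were those in Mest, in the gamma protocadherin genes and in Zfp316, whose peak had a ratio of 0.959.

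Along the chromosomes the shared peaks were unevenly spread. Chromosome 4 had 81, chromosome 7 had 67 and chromosome 1 had 61, and per Mb chromosomes 4 (0.518), 17 (0.495) and 7 (0.461) were the densest. The share of crypts peaks with a villi counterpart ranged on the autosomes from 25.7% on chromosome 19 (9 of 35, 14.2 to 42.1%) to 40 of 80 on chromosome 18 (39.3 to 60.7%). All 12 crypts peaks on chromosome Y were shared (75.8 to 100.0%), and 7 of the 9 on chromosome X.

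**Figure D4:**
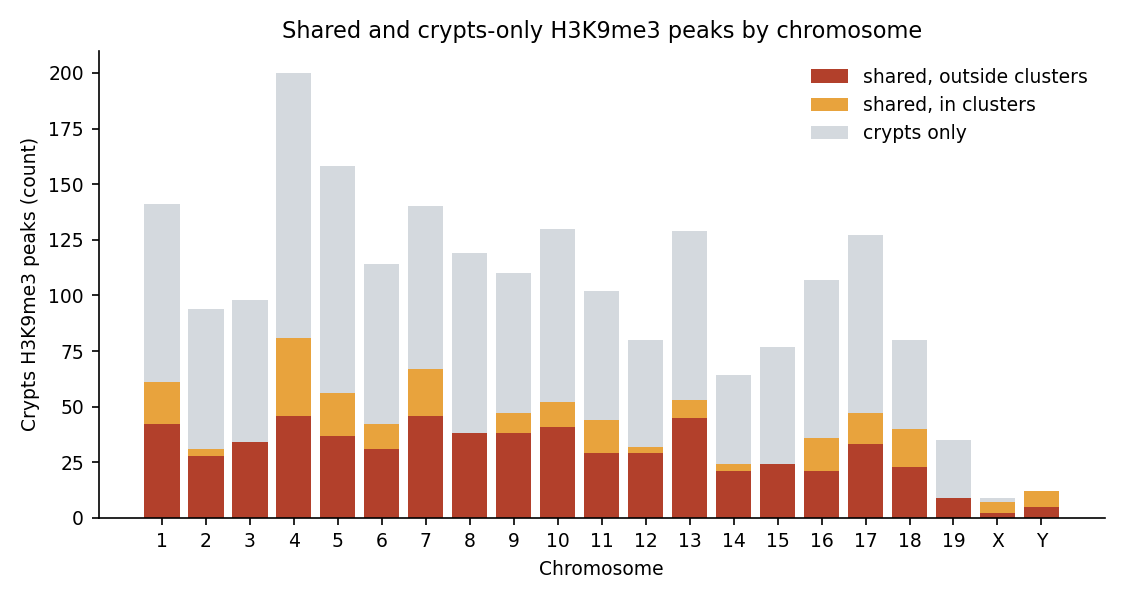
Number of crypts H3K9me3 peaks on each chromosome, split into peaks shared with villi outside clusters (red), shared peaks in clusters of at least 3 (orange) and crypts-only peaks (light grey). Chromosome 4 holds the most shared peaks, 81, and on chromosome Y every one of the 12 peaks is shared.

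Clusters were counted as runs of at least 3 shared peaks with gaps of at most 100 kb. They held 215 shared peaks (25.7%, 22.8 to 28.8%) in 44 clusters, whereas the crypts-only peaks, though more numerous, had 185 (14.4%, 12.5 to 16.4%) in 42 clusters of their own, and the villi-only peaks 332 (27.2%, 24.8 to 29.8%) in 40. For all crypts H3K9me3 peaks as 1 list the share in clusters was 28.9%, from a denser list. The shares depend on the gap. With 500 kb the intervals of shared (39.6 to 46.3%) and crypts-only peaks (34.7 to 39.99%) overlapped slightly, and with 20 kb they were apart. Among the 44 clusters, 24 were of 3 peaks, 4 of 4 and 16 of 5 or more. Clustered peaks had a median score of 15.3 in crypts and 15.9 in villi, and the other 622 had 14.8 and 13.8.

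The largest cluster, chr4:147219363-147475871, held 15 shared peaks over 256.5 kb with the zinc finger genes Zfp988 and Zfp978, although only 1 of the 15 lay within either gene. The median of its 31-mers repeated was 51.7%. A second one on the same chromosome, chr4:146454362-146539259, held 11 shared peaks over 84.9 kb, 6 of them in Zfp992 or Zfp981. On chromosome 10 (chr10:82010800-82228735) 8 shared peaks spanned Zfp873, BC024063, AU041133 and Zfp938. In all, 14 of the 44 clusters had a peak in a zinc finger gene, and 35 of the 68 zinc finger peaks were clustered.

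Other clusters lay over different genes. On chromosome 1, chr1:85084680-85340498 held 13, of which 9 were in C130026I21Rik, with 57.8% of 31-mers repeated in the median. On chromosome 11, chr11:3100116-3199914 held 12, and 11 of these lay in Sfi1, which encodes a centrosome protein. The Sfi1 peaks scored between 10.8 and 232 in crypts and between 23.5 and 454 in villi, and each of the 11 had a higher score in villi. A higher score is not a measured gain of the mark. The widest, 16037 bp, reached into Drg1. On chromosome 16, chr16:20814343-21141150 held 11 without a protein-coding gene, and on chromosome 18, chr18:74257955-74411422 held 9 near Mbd1 and Cfap53. At the end of chromosome X, 5 shared peaks lay in Mid1, a ubiquitin ligase gene that straddles the pseudoautosomal boundary, with 21.9, 11.9, 13.9, 68.6 and 22.9 in crypts and 32.9, 13.3, 12.9, 67.3 and 62.0 in villi. The corresponding end of chromosome Y, chrY:90737398-90813003, held 7. Within Tiam1 on chromosome 16, which encodes an exchange factor of Rac, 4 shared peaks scored 11.9 to 17.2 in crypts and 10.6 to 11.6 in villi, on sequence that was mostly not repeated (median 2.59% of 31-mers). Most crypts peaks of this gene were not shared, as it held 11 crypts-only peaks besides.

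The gamma protocadherins, cell adhesion proteins of neurons and epithelia whose variable exons each have a promoter, had a cluster of 4 shared peaks at chr18:37731545-37768227. In crypts the peaks scored 13.9, 10.98, 14.96 and 22.7 and in villi 13.8, 21.8, 18.4 and 19.1. They overlapped 18 of the 21 genes whose symbol starts with Pcdhg, a number that follows from the nested annotation in which all of these genes end at the same constant exons, and crypts-only peaks overlapped 15 of the 21. CpG ratios were 0.655 to 0.791, and under 5% of the bases were soft-masked. The alpha (14 genes) and beta (22 genes) protocadherins held no shared peak, and 3 of the alpha genes held a crypts-only peak. At 1.33% of all protein-coding genes, lists of this length would hold few or none. Of the UDP-glucuronosyltransferases, which conjugate bilirubin and drugs and are expressed in the intestine, 9 of 22 held one, all from 2 peaks in the nested Ugt1a genes (15.3 and 10.5 in crypts, 14.9 and 11.5 in villi). Crypts-only peaks lay in 7 of the 22. Of the pheromone receptor genes, 1 of 209 of the Vmn1r family (Vmn1r191) and 2 of 122 of the Vmn2r family (Vmn2r16 and Vmn2r63) had a shared peak, near the 1.33% of all protein-coding genes. None of the 1135 olfactory receptor genes held a shared peak and 1 held a crypts-only peak.

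Among the 46 imprinted genes of the list that are in the annotation, 2 held a shared peak, Peg3 and Mest, and Usp29 lay within 5 kb of the peak in Peg3. Crypts-only peaks lay in 5 genes of this list. Both genes are expressed from the paternal copy, and their maternal promoter region is known to be methylated. The Peg3 peak (chr7:6727852-6730399) scored 22.0 in crypts and 10.1 in villi, where it ended at 6728988. It contained 8 copies of TGCCGC on either strand, but only 1 of them in the 1137 bp that were covered in both compartments. The Mest peak (chr6:30736980-30739342) scored 11.3 and 14.8 and had 12 copies, 10 of them in the 1258 bp covered in both. In windows of 300 bp at the centre of the peaks, the motif was in 45 shared peaks (5.38%, 4.04 to 7.12%) and 59 crypts-only peaks (4.58%, 3.56 to 5.86%), against 11.6% of 32851 RefSeq promoter windows of the same length, so that its presence in a window is common. None of the 29 germline genes of the list and none of the 15 genes for writers and partners of H3K9me3 held a shared peak, where 1.33% of all protein-coding genes did. Crypts-only peaks lay in 2 of the 29 and 1 of the 15.

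Overlap with the other marks was rare. The length of the other lists bears on these counts and was not taken into account. In crypts 5 shared peaks met H3K4me3 (0.597%, 0.255 to 1.39%), the mark of promoters, against 0.564% of all crypts H3K9me3 peaks. H3K4me1, the mark of enhancers, met 20 (2.39%, 1.55 to 3.66%), against 55 crypts-only peaks (4.27%, 3.29 to 5.51%) and 3.53% of all. H3K27me3, the mark of Polycomb repression, met 26 (3.11%, 2.13 to 4.51%), against 21 crypts-only peaks (1.63%, 1.07 to 2.48%) and 2.21% of all. H3K9me2 met 2, or 0.0941% of all. The order of these shares differs between shared and crypts-only peaks, but the intervals of each mark overlap. By the midpoint of the shared peak, 2 of the 5 with H3K4me3 in crypts remained, 5 of the 20 with H3K4me1 and 21 of the 26 with H3K27me3. With the top 50% of the other list by score, it was 0, 10 and 14. In villi the shared peaks met H3K4me3 in 9 cases (0.753% of all crypts H3K9me3 peaks did so), H3K4me1 in 31 (4.23% of all), H3K27me3 in 30 (2.87% of all) and H3K9me2 in 2 (0.0941% of all). Counting both compartments 77 shared peaks (9.20%) and 109 crypts-only peaks (8.46%) met some other mark, where all crypts peaks gave 8.75%.

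**Figure D5:**
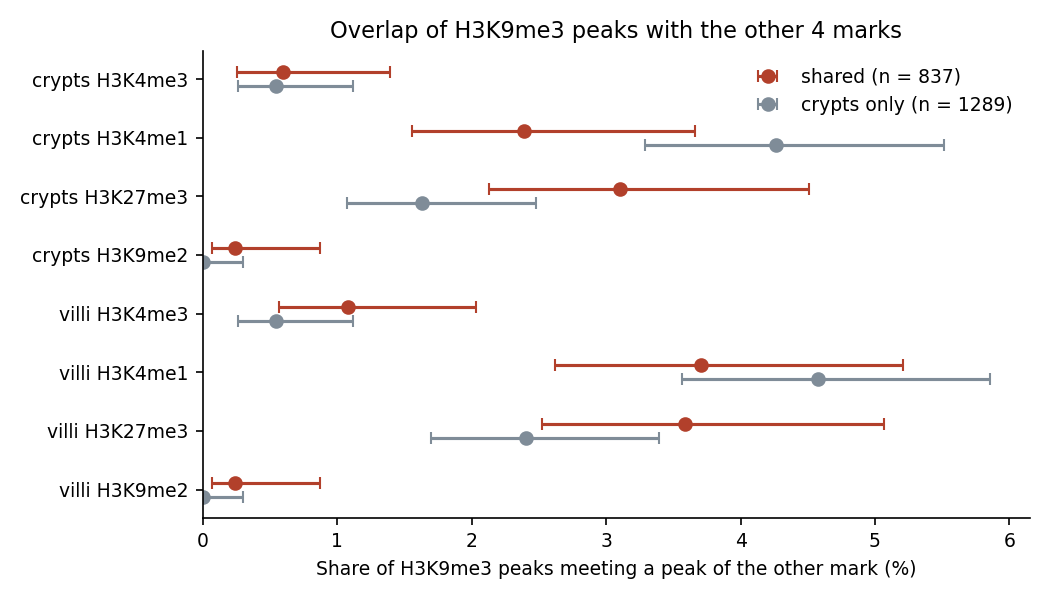
Percentage of the 837 shared (red) and 1289 crypts-only (grey) H3K9me3 peaks that share at least 1 bp with a peak of another mark in crypts or villi, with 95% Wilson intervals as bars. Crypts H3K27me3 met 3.11% of shared and 1.63% of crypts-only peaks, and the intervals overlap for every mark.

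H3K27me3 was called in both compartments at 22 shared peaks, out of 26 with it in crypts and 30 with it in villi. H3K4me1 was called in both at 14, out of 20 in crypts and 31 in villi and H3K4me3 at 4, out of 5 and 9. No shared peak had H3K9me2 in both. The crypts-only peaks had H3K27me3 in both at 18, out of 21 in crypts and 31 in villi, and H3K4me1 at 39, out of 55 and 59. The intervals of these shares overlapped those of the shared peaks for each mark. In the cluster without coding genes on chromosome 16, 6 of the 11 shared peaks met H3K27me3 in crypts or villi, 3 of them in both. The peak at Zfp316 met H3K27me3 in both, as did an intronic one in Scarb1 (15.9 and 15.9), which encodes the lipoprotein receptor SR-B1, and one in Fut2 (10.96 and 10.4), a fucosyltransferase of intestinal epithelium.

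No shared peak met H3K4me3, H3K4me1 and H3K27me3 together in crypts. The Peg3 peak met H3K4me3 and H3K27me3 in both compartments, and the Mest peak H3K27me3 in both, with H3K4me3 and H3K4me1 added in villi. The other one with H3K4me3 and H3K27me3 in crypts was the GC-rich peak on chromosome 17 over AY036118, which in villi met H3K4me1 as well. H3K4me3 was also called in crypts at the start of Tmem267 (chr13:119488712-119489472, with 28.3 and 30.6 for H3K9me3), at the first peak of the largest cluster on chromosome 4 (18.37 and 16.999) and at the widest Sfi1 peak. In villi, the 3 peaks of the chromosome 9 array and the one in Gm21738 met H3K4me3, and 2 of these 4 met H3K9me2 too. With the one over AY036118 these made up 5 of the 9 shared peaks with H3K4me3 in villi. The median 31-mer occurred 13 to 15 times in the array but once in the peaks of Gm21738 and AY036118, where 34.6% and 15.1% of the 31-mers were repeated. Enrichment of the input at these sites was not tested, as the input libraries were not analysed here. Without the 30 shared peaks over 50, a setting added after seeing the data, 3 with H3K4me3, 20 with H3K4me1 and 25 with H3K27me3 remained in crypts.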

How the data were processed

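Called peaks of 10 ChIP-Rx libraries of mouse crypts and villi were analysed, 1 library per compartment and modification, and the 2 inputs were not used here. Per the paper's methods Bowtie 1.1.2 placed the reads on the mouse (mm10) and fly genomes, duplicates were removed and MACS2 2.1.1 called the peaks at p 1e-10; for H3K9me2 the caller is not given in the sources used here. A pair with several best sites was kept at 1 of them, which limits what is measured on repeats. The score in the deposited lists is read as −log10 of the p-value computed by the authors, since the lowest H3K9me3 score is 10.0, and a q-value cannot be told apart. The lists give no read counts, so depth is unknown. Peak numbers have gaps, so the lists were reduced by a step not given in the sources used here.

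Overlaps needed at least 1 bp. Genes were those of GENCODE M21, sequences and repeats (soft-masked bases) those of RefSeq GRCm38.p6, whose 403 tRNA genes gave 124 distinct 3′ ends. Matches to these and the motif TGCCGC were searched on both strands. Copies of 31-mers were counted over the 21 chromosomes, and peaks were aligned to each other with BLAST+ 2.17.0 (E at most 1e-20). The self-offset of a peak was the shortest from 20 bp whose identity lay within 2 percentage points of the highest. Of several villi counterparts the one with the highest score was used, so for the 40 shared peaks with 2 or more the villi score is the highest of several. Computation used Python 3.11.15, NumPy 2.4.6, pandas 2.3.3, SciPy 1.17.1, numba 0.67.0, pysam 0.24.0 and Matplotlib 3.10.9. Overlap, cluster, offset and motif code was tested on simulated peaks with planted answers.

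No test was made, because each group is a single library, and no p-values are given. Shares have 95% Wilson intervals. The peaks, gene lists and comparisons were chosen with earlier results of these data known. Named are the highest-scoring shared peaks, the largest clusters, zinc finger genes with 3 or more shared peaks and the highest-scoring examples, genes of the fixed lists and peaks with several marks. Desi2, Csmd2, Plec, D1Pas1, Rbmxl2, Duxf3, Trim71, Scarb1, Fut2, Zfp445, Tmem267, Tiam1 and the finger genes without a Zfp symbol were named after their values were seen. A planned list of zinc finger proteins from a protein table was replaced by gene symbols. The marker genes of the tissue check and the motif windows were also chosen after the data were seen. Alternatives covered the overlap rule, score, merging, sex chromosomes, cluster gap, gene flank, list and midpoint.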

Additional observations from a re-analysis of the deposited data

How the results depend on the processing

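No paired analysis was possible because each group has 1 library. Of 54 recomputed values 37 stayed within 1.5 times the reported count or within the quartile range of the reported median. An overlap of at least 50% of the length of each peak left 627 shared peaks, 45 in zinc finger genes, 129 in clusters and 3 with H3K4me3 in crypts. The zinc finger share was then 7.18% (5.41 to 9.47%), against 5.07% (4.07 to 6.30%) for the remaining crypts peaks, so that the intervals overlapped, unlike those reported. The top 50% of both lists by score left 433 shared peaks, 89 in clusters, 16 with H3K27me3 and 9 with H3K4me1, with a zinc finger share of 10.6% (8.06 to 13.9%) against 5.31% (3.90 to 7.21%). A gap of 500 kb put 359 shared peaks (42.9%, 39.6 to 46.3%) and 37.3% (34.7 to 39.99%) of crypts-only peaks in clusters, with intervals that overlap slightly, and a gap of 20 kb put 103 (12.3%) and 5.51%. With the top 50% of the other list by score, 0 shared peaks met H3K4me3, 10 H3K4me1 and 14 H3K27me3 in crypts. A start site lay within 5 kb of 138. By midpoint, settings added after seeing the data, 22 lay within 1 kb of a start site, 2 met H3K4me3 and 5 met H3K4me1. Without shared peaks over a score of 50, also added later, 3 met H3K4me3. The zinc finger list by symbol was planned as an alternative to one from proteins and became the reported list, so its 68 is identical by construction and, though among the 37, says nothing on stability. Single libraries of unknown depth and the authors' placement of repeat reads limit every count here.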
